A study of Mus musculus with 2 samples.

Results

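This account covers 10 transcription factors and factor-linked genes of the naive pluripotent state, leaving out the Kruppel-like factors: Nanog, Pou5f1 (Oct4), Esrrb, Tfcp2l1, Tbx3, Prdm14, Zfp42 (Rex1), Nr0b1 (Dax1), Spic and Fbxo15. They were taken by symbol from a table of 14500 gene symbols, and all 10 had a row. The table compares 46C mouse embryonic stem cells, a line with a green fluorescent protein reporter in Sox1, in serum medium with LIF on gelatin: 1 library of cells with the empty vector, titled PB, and 1 library of cells overexpressing the homeobox factor Gbx2, titled PB-Gbx2. Both were labelled as passages 21-24. Neither the promoter that drives the Gbx2 vector nor whether the cells were clones or pools is given in the sources used here. The source names attached to the 2 libraries are the reverse of their titles. The titles were followed, and Gbx2 itself stood at 345 in PB and 1178 in PB-Gbx2, 3.41-fold higher in the library titled for it. The names of the level columns hold these titles, each followed by the suffix _P3, which is not explained in the sources used here. Were the source names right instead, and titles and column names both wrong, each direction below would be inverted.

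With 1 library per vector there is no replicate error and no test, so "higher" and "lower" below describe these 2 libraries. Levels are normalized whole numbers without unit, and both libraries share 1 distribution of values with a median of 388. The number of reads behind each level is unknown. The log2 ratio is that of PB-Gbx2 over PB on log2(level + 1), and a gene was counted as past 2-fold when this ratio reached 1 or -1. Folds are plain ratios of levels. Each gene is also placed among the 725 genes of its own twentieth of mean level, as a percentile of the log2 ratio that describes these libraries only.

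In mouse embryonic stem cells, Oct4 and Sox2 bind DNA together and, with Nanog, hold the undifferentiated state. Around this core sits a set of auxiliary factors, among them Esrrb, Tfcp2l1, Tbx3 and Prdm14, that is expressed in the preimplantation epiblast and in stem cells and is switched off as cells pass to the formative state. LIF feeds this set through Stat3 and PI3K, and Wnt signalling feeds it by relieving repression by Tcf7l1. In serum with LIF, several of these genes, Nanog and Zfp42 included, are known to vary from cell to cell. In a bulk library, more cells that express a gene and more RNA per cell cannot be told apart.

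Of the 10 genes, 6 were at least 2-fold higher in PB-Gbx2 and 0 were at least 2-fold lower. The same cutoffs took in 5.14% (higher) and 5.26% (lower) of all 14500 genes. The 6 were Spic, Nanog, Prdm14, Fbxo15, Tbx3 and Zfp42, at 2.004-fold to 4.16-fold. The other 4, Esrrb, Pou5f1, Tfcp2l1 and Nr0b1, differed by at most 1.26-fold, 2 of them upward and 2 downward. No member lay between these ranges. The median log2 ratio of the 10 was 1.01, and that of all genes was 0.

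**Figure D1:**
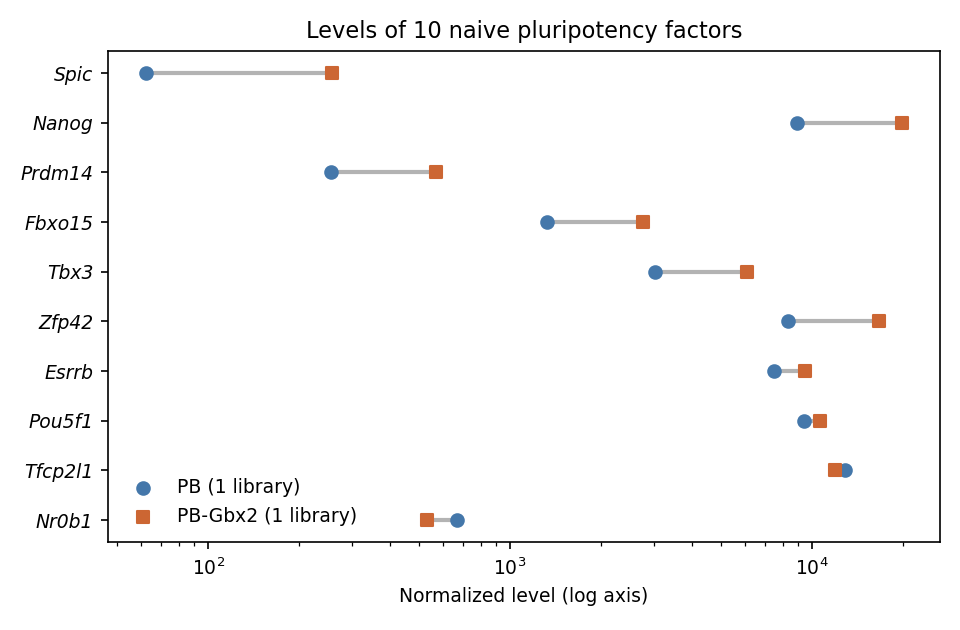
Normalized level of each of the 10 genes (horizontal log axis) in the PB library (circles) and the PB-Gbx2 library (squares), 1 library each, ordered by log2 ratio. The upper 6 genes, from Spic to Zfp42, are at least 2-fold higher in PB-Gbx2, and the lower 4 differ by at most 1.26-fold.

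The core factors differed from each other. Pou5f1, the POU factor Oct4 that is needed for pluripotency, stood at 9446 in PB and 10597 in PB-Gbx2. This is a 1.12-fold difference at percentile 75.8. Nanog, the homeodomain factor whose level sets how firmly cells resist differentiation, stood at 8918 in PB and 19872 in PB-Gbx2, 2.23-fold higher. Only 5 of the 725 genes in the top twentieth of level had a larger ratio, which put Nanog at percentile 99.2. Ordered from the most abundant gene down, Nanog went from place 225 to place 65, while Pou5f1 went from 205 to 175. The partner of Oct4, Sox2, was at 9894 and 10302.

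Among the marker and target genes, Zfp42, a zinc finger protein used as a reporter of the naive state, stood at 8320 in PB and 16671 in PB-Gbx2. The fold was 2.004, on the threshold, and the percentile 98.6. Zfp42 moved from place 258 to place 88. Fbxo15, an F-box gene bound by Oct4 and Sox2 that stem cells can do without, stood at 1324 and 2753, 2.08-fold higher. Its percentile was 99.7, with 2 genes of its twentieth above it, where 0.69% of genes were at least 2-fold higher.

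The proximal promoters of Nanog and Zfp42 are shown because both carry the octamer core TTTGCAT to which POU factors bind, and that of Spic because it had the largest fold of the 10. That of Pou5f1 is added as a member that hardly differed. Each is the 250 bases before a RefSeq transcript start, on the strand of the gene, from a RefSeq table of build GRCm38.p6, with octamer cores in capitals. They lie at chr6:122707239-122707488 (Nanog, plus strand), chr8:43307010-43307259 (Zfp42, minus strand), chr10:88683024-88683273 (Spic, minus strand) and chr17:35505782-35506031 (Pou5f1, plus strand). The first 3 windows overlap no GENCODE M21 exon of their gene, and the window of Pou5f1 overlaps its exons by 14 bases.
Nanog: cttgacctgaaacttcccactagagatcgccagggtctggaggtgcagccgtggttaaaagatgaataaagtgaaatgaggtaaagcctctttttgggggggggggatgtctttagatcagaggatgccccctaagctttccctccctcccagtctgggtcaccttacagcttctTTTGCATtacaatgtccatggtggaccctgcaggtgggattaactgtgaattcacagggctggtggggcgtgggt
Zfp42: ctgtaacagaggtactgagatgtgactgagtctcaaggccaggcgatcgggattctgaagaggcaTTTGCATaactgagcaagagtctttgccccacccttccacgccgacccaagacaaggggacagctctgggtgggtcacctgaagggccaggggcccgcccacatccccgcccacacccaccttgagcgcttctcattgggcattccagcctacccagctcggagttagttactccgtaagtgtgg
Spic: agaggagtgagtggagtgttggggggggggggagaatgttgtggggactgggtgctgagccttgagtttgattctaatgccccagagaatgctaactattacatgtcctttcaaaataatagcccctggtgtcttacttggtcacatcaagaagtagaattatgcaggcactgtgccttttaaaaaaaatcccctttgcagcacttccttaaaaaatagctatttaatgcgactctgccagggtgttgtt
Pou5f1: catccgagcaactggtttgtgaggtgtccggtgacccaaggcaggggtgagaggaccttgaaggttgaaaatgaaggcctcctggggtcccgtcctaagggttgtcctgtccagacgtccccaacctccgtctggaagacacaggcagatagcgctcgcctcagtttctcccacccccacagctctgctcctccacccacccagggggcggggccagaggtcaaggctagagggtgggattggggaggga

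The octamer core begins 75 bases before the start in the window of Nanog and 185 bases before it in that of Zfp42. In Nanog it is followed, after 1 base, by ACAA, a Sox site, which makes an octamer-Sox composite. On either strand, TTTGCAT was found in 4.12% of the 32851 RefSeq windows of 250 bases, and the composite, which contains it, in 0.0335%. Among the members, TTTGCAT was in 3 of 10 windows, 2 of Nanog and 1 of Zfp42, and the composite in the 2 of Nanog. Nanog and Zfp42 were shown for the motif, and any link between it and the folds was not tested. TAATTA, a core to which homeodomain proteins such as Gbx2 can bind, was found in 4.84% of all windows and in 0 of the 10 windows of members. TTCCNGGAA, the palindrome of Stat factors, was found in 0.913% of all windows and in 0 of these 10. Windows were used for 7 of the 10 members, and not for Tbx3, Prdm14 and Fbxo15, all past 2-fold. Any member window on 1 chromosome was left out, while such windows stayed among the 32851. The 10 windows may therefore not be all that the members have. The window counts include overlapping starts of 1 gene, as for Nanog. A match of letters is not a binding site, and distal enhancers lie outside these windows.

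The auxiliary factors fed by LIF and Wnt signalling were split. Tbx3, a T-box factor placed downstream of the PI3K arm of LIF signalling, stood at 3029 in PB and 6107 in PB-Gbx2. Its fold was 2.02 at percentile 98.8, and it moved from place 1133 to place 413. Tfcp2l1, a CP2-family factor that Stat3 induces, stood at 12900 and 11892. It was 1.08-fold lower, at percentile 31.5. Esrrb, an orphan nuclear receptor that Tcf7l1 represses and that can stand in for Nanog, stood at 7508 and 9456. It was 1.26-fold higher, at percentile 89.4, with 76 genes of its twentieth above it. Of these 3 genes, Tbx3 alone was past 2-fold, and it was past it by 0.01 on the log2 scale.

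The less abundant factors gave the largest and the lowest ratios. Prdm14, a PR-domain protein that represses FGF receptor and de novo DNA methyltransferase genes, stood at 256 in PB and 570 in PB-Gbx2. The fold was 2.23 at percentile 99.0, in a twentieth where 1.24% of genes were at least 2-fold higher. Spic, an Ets-family factor that is high in ground-state stem cells, stood at 62 and 258. Its fold of 4.16 was the largest of the 10 and lay at percentile 99.7. At that level ratios scatter more: 6.62% of the genes in the twentieth of Spic were at least 2-fold higher, against 1.52% in the top twentieth. Nr0b1, a nuclear receptor co-repressor that binds Oct4, stood at 668 and 529. It was 1.26-fold lower at percentile 18.0, so 594 of 725 genes of similar level had a higher ratio.

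**Figure D2:**
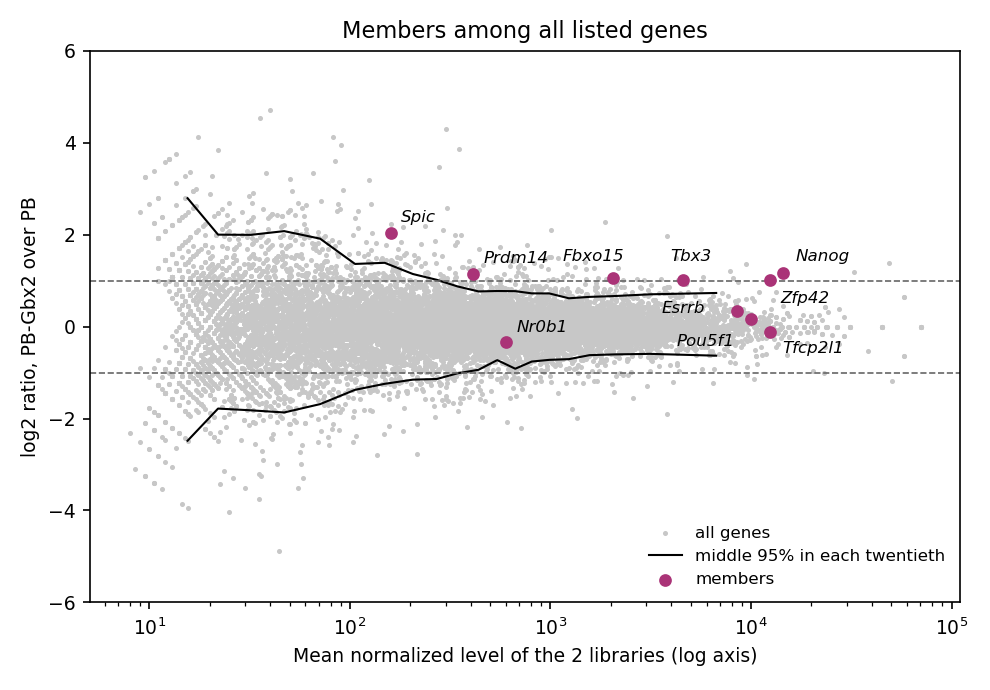
log2 ratio of PB-Gbx2 over PB (vertical axis) against the mean normalized level of the 2 libraries (horizontal log axis) for all 14500 genes (grey) and the 10 members (purple). Black lines join the bounds of the middle 95% of genes in each twentieth of mean level, drawn at the median level of each, and dashed lines mark 2-fold; 6 members lie above the middle 95% of their twentieth and the other 4 inside it.

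The level scale sets how finely these folds can be read. Sorted by size, the highest deposited levels come in blocks of 10 ranks with gaps between blocks. The gaps are wide around Nanog and Zfp42, while at the levels of Prdm14, Nr0b1 and Spic neighbouring blocks touch. Nanog in PB-Gbx2 lay in a block from 19840 to 19898, and the blocks beside it end at 18360 and begin at 21370, a step of 8.42% downward. Zfp42 in PB-Gbx2 lay in a block from 16656 to 16722, with a step of 8.44% to the block below. Of the 192 genes with a mean level of at least 10000, 57 had exactly the same level in both libraries; no member did. When the 2 levels of each member were moved 1 block toward each other, Nanog was 2.02-fold higher, Tbx3 1.98-fold and Zfp42 1.81-fold. Tfcp2l1 became equal in both libraries. Spic, Prdm14 and Fbxo15 were at 4.08-fold, 2.21-fold and 2.06-fold, so 4 of 10 members were then past 2-fold. The steps were under 2% for these 3 genes.

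The levels were divided by the length of the longest coding GENCODE M21 transcript to set the members beside each other. Whether the levels rise in proportion to reads, or were already divided by length, is unknown. The order below holds only if they are proportional to reads. Per kilobase, the highest levels in PB were those of Pou5f1 (6935), Zfp42 (4529) and Nanog (4033). In PB-Gbx2 the order of the top 3 was Zfp42 (9075), Nanog (8988) and Pou5f1 (7780). Esrrb came next in both libraries, at 1746 and 2199 per kilobase, and Tfcp2l1 was at 1392 and 1283. Fbxo15 (693 and 1441) and Tbx3 (608 and 1226) lay near Tfcp2l1 in PB-Gbx2 and below it in PB. Nr0b1 (369 and 293), Prdm14 (99.8 and 222) and Spic (35.2 and 146) were the lowest 3 in both. Which part of each gene the authors counted is not given in the sources used here, so this order depends on the transcript chosen. Spacing between genes has no replicate spread to be judged by.

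Some members share sequence with other loci. Of the 50-base stretches in the longest coding transcript, 15.9% in Pou5f1, 9.17% in Zfp42, 4.76% in Nanog and 9.45% in Spic also occur in GENCODE M21 transcripts of other genes. For Zfp42 these lie in Zfp42-ps1, and for Nanog most often in the pseudogene Nanog-ps1. How the authors assigned such reads is not given, so these 4 levels carry that uncertainty. Tbx3 shares 1.36% with the antisense gene Tbx3os1, which stood at 120 and 87, in the opposite direction to Tbx3; the library kit does not mark strand. Esrrb, Prdm14, Nr0b1 and Fbxo15 shared none.

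In the authors' deposited table, 34 of 14501 rows have an adjusted p under 0.05, and 0 of the 10 members do. Of these, the authors' deposited table ranks Nanog first, at place 36 in the order of p and an adjusted p of 0.054. Zfp42 is at place 82, Tbx3 at 93, Fbxo15 at 112 (adjusted p 0.251), Spic at 144 and Prdm14 at 276 of the authors' deposited table. For the other 4 members the authors' deposited table gives an adjusted p of 1. The test behind these values is not given, and it rests on 1 library per group.

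For each member past 2-fold, the genes nearest in mean level and log2 ratio were found by distance on these 2 log2 axes over 2 libraries. Other members, predicted genes, Riken clones and symbols opening with digits and a hyphen were left out of the search. How sparsely that range is filled can therefore not be read from these distances. The nearest gene to both Nanog and Zfp42 was Zfp57, an imprint-protecting zinc finger gene at 9905 and 16722, with a distance of 0.42 from Nanog and 0.26 from Zfp42. The next was Ube2d3, at 8157 and 13668. Tbx3 lay nearest to the metallothionein Mt2 (3256 and 6200) and to Pmm1 (3602 and 6102). Prdm14 lay nearest to Zfp951 (252 and 584) and Akt1s1 (260 and 616), Fbxo15 to Wdr35 (1242 and 2532) and Rnf7 (1453 and 2832), and Spic to Ahnak2 (66 and 302).

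Of 35 genes of the signalling routes that feed the members, 3 (8.57%) were past 2-fold in either direction. Of all genes 10.4% were, a share not matched for level, so nothing is read from this count. In the top twentieth 1.52% of genes were at least 2-fold higher and 0.69% lower, against 6.62% and 4.97% in the twentieth of Spic. Among genes of similar level, the 3 lay at percentiles 99.0 (Ccnd1), 93.2 (Fgfr2) and 0.62 (Fgfr3). Of 10 genes of the LIF receptor, Stat3 and PI3K route, 0 were past 2-fold, and the median log2 ratio was -0.07. The largest ratios there were those of the feedback inhibitor Socs3 (7332 and 5692), the receptor chain Il6st (2498 and 1940), Akt1 (761 and 916) and Jak2 (182 and 152). Of 10 genes on the Wnt route, the cyclin Ccnd1 (670 and 1380) was past 2-fold, and Tcf7l1, the repressor of Esrrb and Nanog, stood at 428 and 398. The beta-catenin gene Ctnnb1 was at 11378 and 13630, Gsk3b at 648 and 859 and the scaffold Axin1 at 1109 and 1366. On the FGF and ERK route, which drives exit from the naive state, 2 of 15 genes were past 2-fold: the receptors Fgfr3 (131 and 24, lower) and Fgfr2 (42 and 102, higher). Spry2, a feedback inhibitor, was at 984 and 1747, and Egr1 at 396 and 262.

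Other pluripotency genes were compared in the same way. Of 30 listed genes outside the members and the Kruppel-like factors, the TGF-beta ligand Gdf3 (371 and 757) was past 2-fold and the median log2 ratio was 0.06. The threonine dehydrogenase Tdh (2692 and 4759), Zfp57, the zinc finger gene Sall1 (1576 and 2564) and the nuclear receptor Nr5a2 (991 and 1490) followed. Downward, the RNA-binding protein gene Lin28a (4206 and 2863) lay at percentile 2.83. Of the Kruppel-like factors, Klf4 was past 2-fold (4701 and 10924), Klf2 stood at 2610 and 3898 and Klf5 at 1808 and 1092. Of 18 chromatin partners of Nanog and Oct4, such as NuRD subunits and Tet enzymes, 0 were past 2-fold. Their median was -0.01, and the largest ratios were those of the O-GlcNAc transferase Ogt (9882 and 6334), Arid1a (3140 and 4406), Wdr5 (6222 and 8695) and Mta2 (3637 and 4774). Of all genes 10.4% were past 2-fold in either direction, a share not matched for level. Nothing is read from the counts in these lists.

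Of 26 genes chosen as family relatives of the members, 22 had a row, 2 were at least 2-fold higher and 0 lower, with a median log2 ratio of 0.15. Of all genes, 5.14% and 5.26% were past those cutoffs. With 22 genes the count is too small to be set against these shares, and nothing is read from it. The 2 were Prdm16 (116 and 307) and Spib (22 and 51), an Ets factor of the same subfamily as Spic. The Grainyhead gene Grhl2 was at 318 and 161, and Nr5a2 was above 1.5-fold. Among close relatives of single members, Yy1, from which Zfp42 derives, stood at 1596 and 1740 and Tfcp2 at 446 and 418, while Esrra, at 215 and 310, was 1.44-fold higher.

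Genes known to be controlled by the members were described next to them. Of 5 genes that Prdm14 represses, Dnmt3b was 2.44-fold lower (4290 and 1761), Dnmt3a (3826 and 3060) and Dnmt3l (7356 and 6024) were at most 1.25-fold lower, Fgfr1 was equal at 1585 and Fgfr2 was past 2-fold in the other direction. Of 8 listed partners of Prdm14, 0 were past 2-fold, with Tfap2c (1441 and 2439), Suz12 (4092 and 6446), Dppa3 (74 and 50) and the co-repressor Cbfa2t2 (1605 and 2340) having the largest ratios. The betaine and dimethylglycine enzymes Bhmt (28 and 572), Dmgdh (45 and 508) and Bhmt2 (34 and 222), for which Spic is known as a regulator, were all past 2-fold, at 20.4-fold, 11.3-fold and 6.53-fold. Past 2-fold in either direction were 10.4% of all genes, a share not matched for level, so nothing is read from these counts. These lists were drawn up with such ratios known, so they are not independent evidence of a direction, and whether the members contribute to them was not tested.

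**Figure D3:**
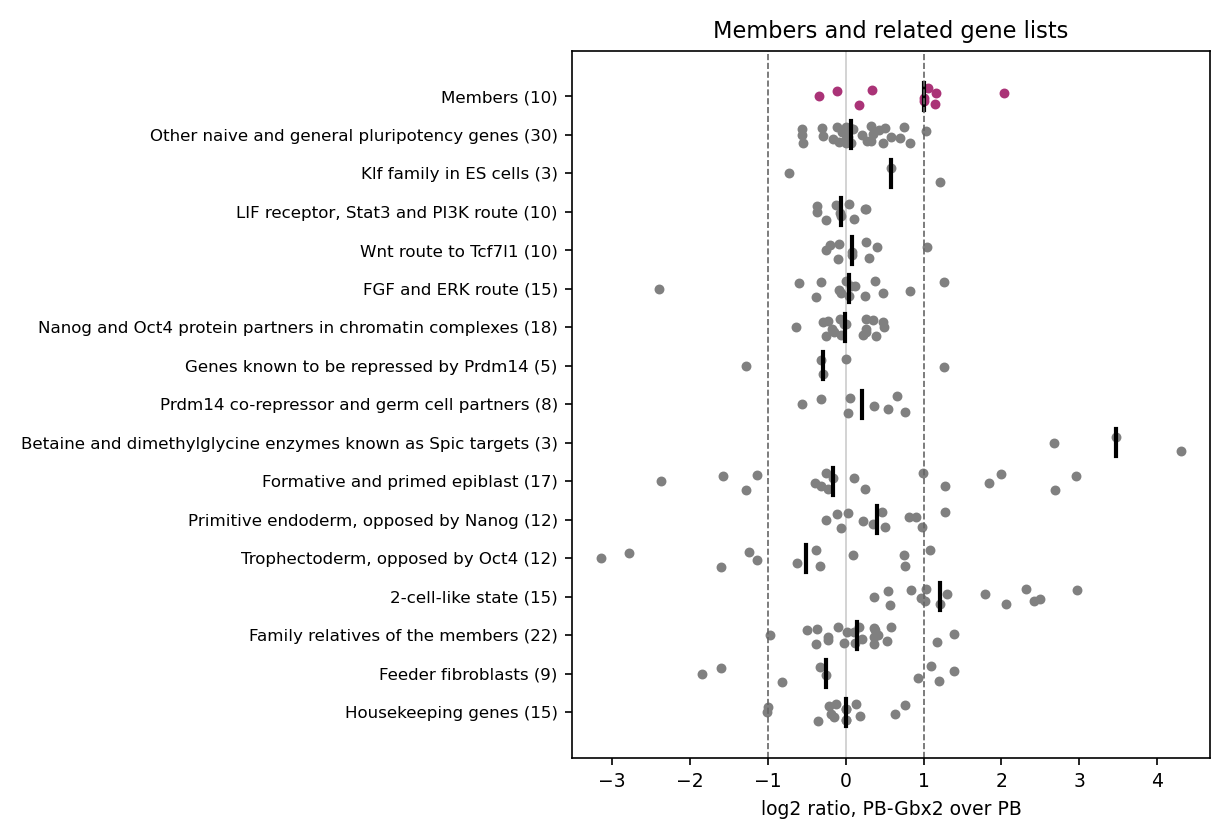
log2 ratio of PB-Gbx2 over PB (horizontal axis) for every gene with a row, by list, with the number of genes in brackets; points are genes, black bars are list medians, dashed lines mark 2-fold and the vertical spread within a list has no meaning. The median of the members (purple) is 1.01, and those of the LIF, Wnt, FGF and chromatin partner lists lie between -0.07 and 0.08.

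Markers of embryonic stem cells, as the libraries are labelled, were high in both: 8 of 8 had levels between 2828 and 31035, among them Tdgf1, Sall4, Lin28a and Utf1. Markers of neighbouring states were listed too, some at low and some at high levels. The primitive endoderm list, whose genes Nanog opposes, had 12 of 16 genes with a row and summed to 18014 in PB and 19406 in PB-Gbx2, mostly laminins, collagens and Sparc. Of the 12, 9 were above equality and 3 below it, Lamb1 (1736 and 1606), Sparc (3757 and 3606) and Cubn (42 and 35). The largest ratios were those of Gata6 (18 and 45), which was past 2-fold, Pdgfra (63 and 125), Gata4 (36 and 68) and Hnf4a (99 and 174), at percentiles from 86.8 to 94.1 among genes of similar level. The trophectoderm list, whose genes Oct4 opposes, had 12 of 16 and summed to 4160 and 4109. Tfap2c made up much of these sums, and the other 11 summed to 2719 and 1670. There Krt7 (43 and 4), Krt19 (377 and 54), Bmp8b (105 and 34), Krt8 (532 and 225) and Krt18 (363 and 164) were past 2-fold lower and Esx1 (25 and 54) past it higher. The lower genes lay at percentiles from 0.07 (Krt19) to 2.97 (Bmp8b), and Esx1 at 89.0. Of all genes, 5.26% were at least 2-fold lower and 5.14% higher. Sox17, Sox7, Foxa2, Amn, Cdx2, Elf5, Gata3 and Hand1 have no row and were not analysed here.

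The formative and primed list had 17 of 19 genes, summed to 12860 and 11125 and had a median of -0.17. Of these, 5 were at least 2-fold higher, Sox3 (3 and 30), Fst (6 and 44), Foxd3 (134 and 538), T (6 and 24) and Nodal (1260 and 3058), and 4 lower, Lefty1 (180 and 34), Lefty2 (664 and 222), Dnmt3b and Krt18. Of all genes, 5.14% were at least 2-fold higher and 5.26% lower. Among genes of similar level, the 5 lay at percentiles from 91.7 (T) to 99.8 (Foxd3 and Nodal), and the 4 from 0.21 (Lefty1) to 2.55 (Krt18). The 2-cell-like list had 15 of 20, summed to 3549 and 5372, most of it Eif1a, and had 10 genes at least 2-fold higher, led by Tmem92 (20 and 164), Usp17lb (14 and 84), Usp17la (13 and 74) and Usp17ld (10 and 54). The other 6 were Usp17le (26 and 112), Usp17lc (29 and 103), Gm5662 (114 and 283), Zscan4c (98 and 228), Zscan4d (47 and 97) and Zscan4e (40 and 82). Among genes of similar level, where ratios scatter more, the 10 lay at percentiles from 89.6 (Zscan4e) to 99.7 (Tmem92). The Usp17l and Zscan4 genes are near-identical copies whose reads cannot be split with certainty. The fibroblast list had 9 of 16, and its sum of 30104 and 72568 was mostly Fn1 (26866 and 70328). The Fn1 level in PB-Gbx2 is the highest that occurs, a value that 10 rows share, so its fold is not finely resolved. Col1a1 (132 and 36) and S100a6 (435 and 143) were past 2-fold lower. Fn1, Thbs1 (16 and 38) and Tagln (20 and 44) were past it higher, and the collagen Col1a2 was barely listed (9 and 18). What part shares of these cell states have in the ratios of the members was not tested.

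Of 15 housekeeping genes, 2 were past 2-fold, Pgk1 (31052 and 15394) and the weakly listed Hprt (29 and 14), both lower, while B2m (265 and 410) was higher. Their median log2 ratio was 0, that of all genes.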

How the data were processed

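RNA of 2 libraries, 1 per vector, was sequenced from TruSeq libraries. STAR and the mouse build mm9 are named per the submitters' processing notes; no version, annotation or counting tool is given in the sources used here. The table holds 14501 rows. Its 2 level columns hold whole numbers that were treated as a score, normalized and rounded by the authors, since all 14501 sorted values are equal in both, with a total of 16528899. The deposited fold ratio is PB over PB-Gbx2, beside its log2 and the authors' p-value and adjusted p-value. Titles and source names disagree, and the titles were used.

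The 2 rows that share 1 symbol were summed. From the levels, log2(level + 1) ratios, places, percentiles within 20 level groups and counts past 2-fold were computed with Python 3.11.15, numpy 2.4.6 and pandas 2.3.3. The procedure was tested on simulated data, with planted folds larger than most members past 2-fold had and with less scatter. That check says nothing about calls near 2-fold in these libraries. No test or p-value was computed. Alternatives were pseudocounts of 0.1 and 5, rescaling, no minimum level or one of 100, a 1.5-fold threshold and the 200 genes nearest in level; a 2.1-fold threshold and the shift by 1 block were added after seeing the data. The members and lists were chosen with earlier results of these data known. Genes named were all members, Gbx2, those past 2-fold and up to 4 with the largest ratios in each list, and the 2 genes nearest to each member past 2-fold; a few others were named after their values were seen, and some genes under this rule are left out of the text. No column belonged to another series. Depth is unknown.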

Additional observations from a re-analysis of the deposited data

How the results depend on the processing

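Of the 6 members at least 2-fold higher, 3 lay within 0.1 log2 units of the threshold, so with a 2.1-fold threshold, chosen after seeing the data, 3 members remained: Spic, Nanog and Prdm14. At that threshold 4.51% of all genes were counted as higher, and at 1.5-fold 11.6%, with 6 members. Moving both levels by 1 block, also chosen after seeing the data, left 4 members past 2-fold and a median of 0.92. Of 92 values under the alternatives, 91 stayed within 1.5 times of the reported value or on the same side of the middle 95% of genes of similar level, the exception being the count at 2.1-fold. That bound is wide, since a fall from 6 to 4 members counts as staying within it. The 91 is therefore no measure of robustness. None reversed, but Tfcp2l1 lost its direction with the shift by 1 block, where both levels became equal. Rescaling and the minimum levels changed no member, since the deposited values already share 1 distribution and every member passes a level of 100. The largest move of a log2 ratio of a member was 0.15, for Zfp42 with the shift by 1 block. No paired analysis was possible because there is 1 library per vector, and for the same reason no library could be left out. With no replicate and unknown depth, the ratios of genes at like levels are the sole yardstick here.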
